A study of Mus musculus with 40 samples.

Results

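The adenosine and purinergic genes described here are 10 genes that encode receptors for extracellular ATP, other nucleotides and adenosine, and the surface enzymes that turn ATP into adenosine, in macrophages that received LPS. They were picked by name, as the genes of a deposited expression table called Adora2a, Adora2b, Adora3, P2rx4, P2rx7, P2ry2, P2ry6, P2ry14, Entpd1 and Nt5e, which is 10 of the 27179 genes that the table holds. That rule uses names only, but the names were chosen with earlier results of these data known. The table covers 40 RNA-seq libraries from bone marrow-derived macrophages (BMDMs), which are grown from mouse bone marrow in medium conditioned by L cells. The cells came from 4 WT and 4 Cpeb4-/- male mice (CPEB4-KO in the sample labels, a knockout in the whole animal of the RNA-binding protein CPEB4), all of a mixed C57BL/6J and 129 strain background. They were left unstimulated (0 hr) or received 10 ng/ml LPS, a component of the bacterial outer membrane, for 1, 3, 6 or 9 hr, so that each genotype had 4 libraries at each time. Each mouse gave cells at all 5 times, and the labels give 2 batches with 2 WT and 2 Cpeb4-/- mice in each. WT and Cpeb4-/- mice shared no cage by the labels, so cage and genotype cannot be told apart.

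All values are regularized log values (rlog), a log2 scale that the authors computed with DESeq2. Library size has been corrected for on this scale, and the differences of weakly expressed genes are shrunken, so their folds are understated. The table gives no read counts, so the depth of each library is unknown from it, and the precision of a value is that of the spread between mice. By their markers the libraries were those of macrophages. All 7 macrophage markers were high, from 8.89 in the lowest library for Mertk to 18.9 in the highest for Lyz2, whereas T cell, B cell and mast cell markers were at or under 2.10 in every library, with Mcpt4 and Tpsb2 at 0 throughout. Xcr1, a dendritic cell marker, ranged from 4.42 to 7.06, and the neutrophil gene Camp reached 5.00. Cpeb4 itself was lower in Cpeb4-/- at 6 hr by 1.27 (SE 0.19, limma adjusted p = 0.0011) with no overlap, but the genotypes overlapped at the other 4 times. That value is a gene total and may still count exons left in the knockout allele.

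ATP leaves stressed or activated cells and acts on P2X receptors, which are ATP-gated ion channels, and on some P2Y receptors. P2Y receptors are coupled to G proteins and, depending on the receptor, respond to nucleotides such as ATP, UTP or UDP, or to UDP-sugars. The ectonucleotidase CD39, encoded by Entpd1, converts ATP and ADP to AMP, and CD73, encoded by Nt5e, converts AMP to adenosine, which acts on G protein-coupled receptors of its own. In macrophages, ATP acting on P2X7 is a classical trigger of the NLRP3 inflammasome, and adenosine acting on the products of Adora2a and Adora2b raises cyclic AMP and dampens the production of inflammatory cytokines.

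The bases before the annotated starts are shown for the 3 genes that differed between the genotypes at 6 hr (Adora3, P2rx4 and Entpd1) and for 2 genes with an early rise after LPS (Adora2b and P2ry2). RefSeq windows of GRCm38.p6 were matched for 8 of the 10 genes, all but Adora2a and P2ry6. The 250 bases before a start are given on the strand of the gene. The RefSeq starts shown for Adora3 and P2ry2 lie inside the longer gene spans that GENCODE gives them, and P2ry2 and Entpd1 have further RefSeq starts that are not shown. The windows are chr3:105904171-105904420 on the plus strand for Adora3, chr5:122707294-122707543 on the plus strand for P2rx4, chr19:40612116-40612365 on the plus strand for Entpd1, chr11:62248734-62248983 on the plus strand for Adora2b and chr7:101011999-101012248 on the minus strand for P2ry2. Capitals mark matches, on either strand, to the letters of 7 motifs: NF-kB (GGG, any 2 bases, then TTTCC or TTCC), AP-1 (TGANTCA), the CRE core (TGACG), HIF (ACGTG), C/EBP (TTGCNNAA), IRF (GAAA, any 2 bases, GAAA) and PU.1 (GAGGAAGT).
Adora3: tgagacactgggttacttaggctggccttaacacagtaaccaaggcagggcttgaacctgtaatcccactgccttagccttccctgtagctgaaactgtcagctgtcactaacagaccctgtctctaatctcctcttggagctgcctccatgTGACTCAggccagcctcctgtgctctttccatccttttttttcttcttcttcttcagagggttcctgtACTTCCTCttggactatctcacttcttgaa
P2rx4: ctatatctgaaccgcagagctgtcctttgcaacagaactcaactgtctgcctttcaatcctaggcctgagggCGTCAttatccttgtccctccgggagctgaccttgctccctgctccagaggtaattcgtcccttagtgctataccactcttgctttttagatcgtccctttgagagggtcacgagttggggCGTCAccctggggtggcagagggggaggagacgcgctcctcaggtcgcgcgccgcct
Entpd1: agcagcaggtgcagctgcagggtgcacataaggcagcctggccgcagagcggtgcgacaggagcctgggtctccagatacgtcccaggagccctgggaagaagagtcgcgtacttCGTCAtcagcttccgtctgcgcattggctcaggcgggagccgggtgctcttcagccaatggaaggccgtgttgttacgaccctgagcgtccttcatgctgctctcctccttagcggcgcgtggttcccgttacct
Adora2b: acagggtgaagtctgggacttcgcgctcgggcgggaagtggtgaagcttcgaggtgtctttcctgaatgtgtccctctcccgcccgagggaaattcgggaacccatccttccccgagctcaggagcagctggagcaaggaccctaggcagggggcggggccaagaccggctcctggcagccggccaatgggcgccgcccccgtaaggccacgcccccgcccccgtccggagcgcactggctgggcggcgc
P2ry2: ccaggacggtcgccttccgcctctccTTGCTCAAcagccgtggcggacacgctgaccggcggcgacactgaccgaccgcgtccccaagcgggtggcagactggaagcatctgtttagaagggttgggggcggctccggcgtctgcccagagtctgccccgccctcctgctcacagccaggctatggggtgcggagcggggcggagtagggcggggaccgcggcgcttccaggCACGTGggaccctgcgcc

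The Adora3 window holds the AP-1 letters 98 bases before the start and the PU.1 letters 30 bases before it, which 6.75% and 2.44% of all 32851 windows of this length hold. P2rx4 holds the CRE core at 178 and 57 bases before the start and Entpd1 at 135 bases, a motif that 17.8% of windows hold. P2ry2 holds the C/EBP letters at 224 bases (9.56% of windows), and its capitals CACGTG are the HIF letters on both strands, overlapping each other (16.6% of windows). The Adora2b window holds none of the 7, and NF-kB and IRF letters, which 5.99% and 2.98% of windows hold, are in none of the 5 windows shown. A window of P2ry14, not shown, holds the NF-kB letters 35 bases before its start. A match describes letters and not a bound site.

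Per length of exon, the order of levels in WT at 0 hr was P2ry6, P2rx4, Entpd1, P2rx7, P2ry2, Adora2b, Adora2a, P2ry14, Adora3 and Nt5e. The level used for this order is the back-transformed rlog value, in normalised reads, divided by the kilobases of merged exons in GENCODE vM21. It was 2335 ± 125 (SD, n = 4) for P2ry6, 1015 ± 67.9 for P2rx4 and 298 ± 23.8 for Entpd1. At the other end it was 16.1 ± 1.40 for Adora3 and 0.147 ± 0.026 for Nt5e. Among neighbours in that order, Entpd1 and P2rx7 (262 ± 18.3) were the only pair whose libraries overlapped at 0 hr. At 6 hr Adora2a came next after P2ry6 and P2rx4 at 881 ± 36.5, above Adora2b at 640 ± 62.6 and P2ry2 at 597 ± 21.8, which overlapped each other. Entpd1 (144 ± 4.77) again overlapped P2rx7 (130 ± 7.54) at 6 hr, and P2ry14 (69.3 ± 8.26) overlapped Adora3 (61.4 ± 6.93).

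**Figure D1:**
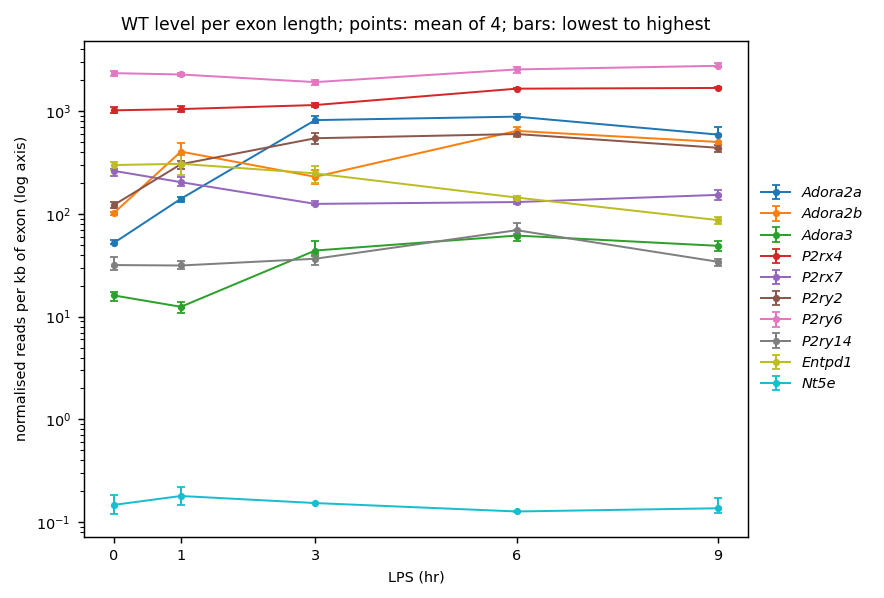
Level of the 10 genes in WT BMDMs against hours of LPS, as normalised reads per kilobase of exon on a log axis; points are means of 4 mice and bars run from the lowest to the highest mouse. P2ry6 and P2rx4 are the top 2 lines at every time, Adora2a rises from 52.1 to 881 between 0 and 6 hr, and Nt5e stays at or under 0.220.

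Nearly all of these genes changed over the hours of LPS, in different directions and at different times, as did most of all genes tested. Unstimulated cells were taken at 0 hr only, so effects of LPS and of time in culture cannot be told apart. Of the 10 genes, 9 passed the filter on low values (an average rlog no lower than the log2 of 5), and these were tested with limma among all genes that passed. By 9 hr in WT, 6 of the 9 were higher than at 0 hr (Adora2a, Adora2b, Adora3, P2rx4, P2ry2 and P2ry6) and 2 were lower (P2rx7 and Entpd1) at an adjusted p under 0.05. Of all 13100 genes tested 71.5% also reached this, 35.9% as higher and 35.6% as lower. The median difference of the 9 genes was 0.73, against -0.0044 over all genes. In Cpeb4-/- BMDMs 7 were higher and 2 lower, P2ry14 being the additional rise, against 72.8% of all genes, 36.4% in each direction. Under quantile normalization of the libraries P2ry6 was instead lower at 9 hr, by 0.29 in WT and 0.16 in Cpeb4-/-, and the rise of P2rx4 shrank to 0.14 in WT and 0.041 in Cpeb4-/-. P2ry14 was then higher at 9 hr in WT as well, by 0.28 (adjusted p = 0.016). That scaling shifted the difference of 9 hr against 0 hr in WT by a median of 0.10 over all genes and of -0.48 over the 1293 most expressed genes (an average rlog of 12 or more), among which are P2rx4 and P2ry6.

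Step by step, 5 of the 9 genes changed from 0 to 1 hr in WT (33.9% of all genes), 8 from 1 to 3 hr (60.1%), 6 from 3 to 6 hr (63.7%) and 7 from 6 to 9 hr (51.4%). In Cpeb4-/- the counts were 4 (43.8%), 7 (64%), 6 (64.4%) and 7 (53.6%). Adora2a, Adora2b and P2ry2 rose in the first hour in both genotypes. From 3 to 6 hr Adora2b, P2rx4, P2ry6 and P2ry14 rose and Entpd1 fell in both. The count for 6 to 9 hr in WT was 4 without WT mouse 25, where the share of all genes was 42.5%.

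**Figure D2:**
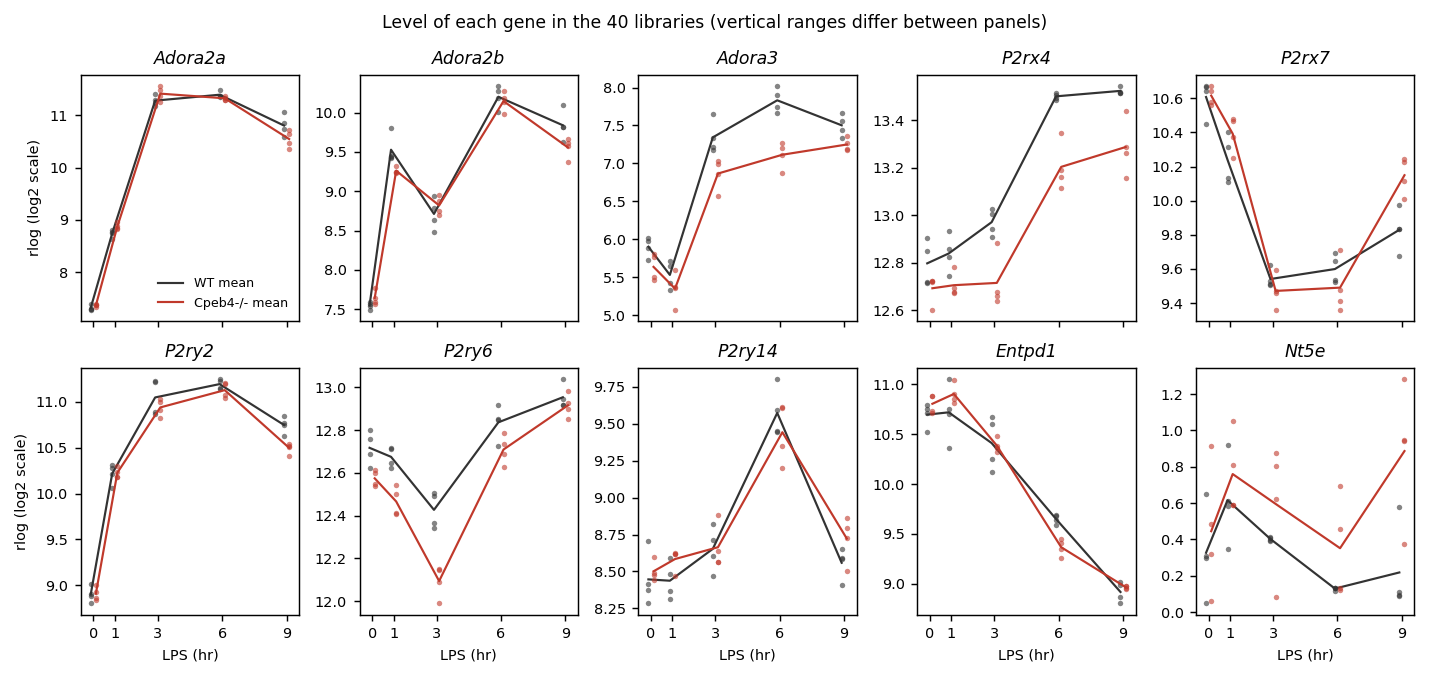
rlog of each of the 10 genes (log2 scale, with a range of its own in each panel) against hours of LPS; points are the 40 libraries, WT in grey and Cpeb4-/- in red, and lines join the means of 4 mice. Adora2b shows peaks at 1 and 6 hr, P2ry14 a peak at 6 hr, P2rx7 a trough at 3 and 6 hr, and Entpd1 a fall to 9 hr.

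Adora2a, at chr10:75316877-75334784 on the plus strand (Entrez gene 11540), encodes a Gs-coupled receptor through which adenosine raises cyclic AMP in leukocytes. In WT it was at 7.28, 7.29, 7.30 and 7.40 at 0 hr and at 11.35, 11.37, 11.38 and 11.48 at 6 hr. The groups were far apart, and its span of 4.10 between the lowest and the highest group mean was the widest of the 10 genes. It rose by 1.43 (SE 0.08, limma adjusted p = 3.93e-12) in the first hour and by 2.54 (adjusted p = 1.84e-16) from 1 to 3 hr, in 4 of 4 mice each time. Between 6 and 9 hr it fell by 0.59 in WT (adjusted p = 1.99e-06) and by 0.78 in Cpeb4-/- (adjusted p = 8.89e-09). At 9 hr it was still 3.49 above its 0 hr level in WT and 3.19 above it in Cpeb4-/-.

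Adora2a did not pass the test between the genotypes at any time. At 9 hr Cpeb4-/- libraries were at 10.35, 10.48, 10.64 and 10.72 and WT libraries at 10.58, 10.74, 10.85 and 11.06. These overlapped, and the difference was -0.26 (95% interval -0.49 to -0.025, limma adjusted p = 0.149). With the mouse as a replicate block in a fit of all 40 libraries the adjusted p was 0.014, in a fit that called 18.1% of all genes at 9 hr. Without the block that fit gave 0.013.

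Adora2b, at chr11:62248984-62266453 on the plus strand (Entrez gene 11541), encodes the low-affinity adenosine receptor. It lies on the chromosome of Cpeb4, 30.3 Mb away. It rose, fell and rose again after LPS. The WT libraries were at 7.49, 7.54, 7.57 and 7.60 at 0 hr, at 9.42, 9.44, 9.45 and 9.80 at 1 hr, at 8.48, 8.63, 8.79 and 8.95 at 3 hr, and at 10.01, 10.18, 10.27 and 10.34 at 6 hr. None of these neighbouring groups overlapped, whereas the 9 hr libraries, at 9.63 to 10.09, overlapped those of 6 hr. The changes in WT were a rise of 1.98 (SE 0.11, limma adjusted p = 4.18e-12), a fall of 0.82 (adjusted p = 1.27e-06), a rise of 1.49 (adjusted p = 2.1e-10) and a fall of 0.36 (adjusted p = 0.0076), each in 4 of 4 mice. The last was lost without WT mouse 25 or 87 (adjusted p = 0.080 and 0.054). Cpeb4-/- libraries followed the same course, with changes of 1.62, -0.44, 1.33 and -0.59 that all passed the test.

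At 1 hr Adora2b was at 9.23, 9.24, 9.25 and 9.32 in Cpeb4-/-, below all WT libraries. The difference of -0.27 (SE 0.086) did not pass the test (limma adjusted p = 0.089), and it was -0.20 in batch 1 and -0.34 in batch 2. At 9 hr the difference was -0.28 (adjusted p = 0.0995; 0.046 with batch as a covariate, 0.026 without Cpeb4-/- mouse 2). With the mouse as a replicate block in a fit of all 40 libraries the adjusted p was 0.030 at 1 hr and 0.032 at 9 hr. Without the block that fit gave 0.031 and 0.032.

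Adora3, at chr3:105870858-105908926 on the plus strand (Entrez gene 11542), encodes a Gi-coupled adenosine receptor. In GENCODE it shares 20.9% of its exon bases with Tmigd3 on the same strand, so reads from there cannot be told apart. In WT it was at 5.73, 5.88, 5.98 and 6.02 at 0 hr, at 5.33, 5.43, 5.65 and 5.71 at 1 hr and at 7.67, 7.74, 7.90 and 8.02 at 6 hr. The groups did not overlap. The fall in the first hour, by 0.37 (limma adjusted p = 0.016), was lost without WT mouse 88 (adjusted p = 0.138) and under quantile normalization (0.054). The rise from 1 to 3 hr was 1.81 (SE 0.12, adjusted p = 2.52e-11) in WT and 1.52 (adjusted p = 5.85e-10) in Cpeb4-/-.

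Among the 9 genes tested, Adora3 had the widest difference between the genotypes, at 6 hr. The Cpeb4-/- libraries were then at 6.87, 7.11, 7.20 and 7.27, all below the WT libraries given above. The difference was -0.72 (SE 0.10, 95% interval -0.94 to -0.49, limma adjusted p = 0.00098), and it was -0.97 in batch 1 and -0.46 in batch 2. At 3 hr the Cpeb4-/- libraries, at 6.57 to 7.04, were also all below those of WT, at 7.17 to 7.65. The difference of -0.48 did not pass the test (limma adjusted p = 0.071). It passed with the replicate block (adjusted p = 0.0077), with all 40 libraries in one fit (0.0092) and without WT mouse 88 (0.024). From 6 to 9 hr WT fell by 0.33 (adjusted p = 0.022, lost without WT mouse 25, 69 or 88 at 0.053 to 0.133), and the change in Cpeb4-/- was 0.13 (adjusted p = 0.363). The difference between these changes was not tested. At 9 hr the genotypes differed by -0.25 (adjusted p = 0.096; 0.025 without Cpeb4-/- mouse 2).

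P2rx4, at chr5:122707544-122729738 on the plus strand (Entrez gene 18438), encodes an ATP-gated channel of lysosomes and the plasma membrane. P2rx7 lies 16112 bases from it. P2rx4 in WT was at 12.71, 12.72, 12.85 and 12.91 at 0 hr, at 12.91, 12.94, 13.01 and 13.03 at 3 hr and at 13.49, 13.49, 13.51 and 13.51 at 6 hr. The WT libraries of 6 hr lay close together and above all earlier ones. From 3 to 6 hr it rose by 0.53 (SE 0.05, limma adjusted p = 6.35e-09) in WT and by 0.49 (adjusted p = 6.79e-07) in Cpeb4-/-, and by 0.27 and 0.29 under quantile normalization. The earlier changes in WT were 0.041 in the first hour and a rise of 0.13 from 1 to 3 hr (adjusted p = 0.022), which turned to -0.25 and -0.17 under quantile normalization. The latter was also lost without WT mouse 25, 69 or 87 (adjusted p = 0.069 to 0.144).

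P2rx4 was lower in Cpeb4-/- at 3, 6 and 9 hr. At 6 hr its Cpeb4-/- libraries were at 13.11, 13.16, 13.19 and 13.35, below all WT libraries, with a difference of -0.30 (SE 0.05, limma adjusted p = 0.0020; -0.33 in batch 1 and -0.27 in batch 2). At 3 hr they were at 12.64, 12.66, 12.68 and 12.88, and the difference was -0.26 (SE 0.06, adjusted p = 0.046). At 9 hr they were at 13.16, 13.26, 13.29 and 13.44 against 13.51, 13.52, 13.52 and 13.54 in WT, with a difference of -0.24 (SE 0.06, adjusted p = 0.037). The groups did not overlap at any of these times. The call at 3 hr was lost without any of 6 mice (Cpeb4-/- mouse 2, 3 or 62, WT mouse 25, 69 or 87; adjusted p = 0.059 to 0.146) and that at 9 hr without any of 6 (Cpeb4-/- mouse 3 or 62, or any WT mouse; 0.081 to 0.101). Both calls were also lost under quantile normalization (adjusted p = 0.058 at 3 hr and 0.071 at 9 hr), without the filter (0.110 and 0.081) and without the trend (0.088 and 0.070), and that at 3 hr with batch as a covariate (0.077). At 0 hr the difference was -0.10 (adjusted p = 0.337) and at 1 hr -0.13 (adjusted p = 0.115, and 0.041 with the replicate block).

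P2rx7, at chr5:122643911-122691432 on the plus strand (Entrez gene 18439), encodes the ATP-gated channel that opens at high ATP and leads to inflammasome activation. On the deposited scaling it was the only one of the 8 receptor genes that was lower at 9 hr than at 0 hr. Under quantile normalization P2ry6 was lower as well, by 0.29 in WT and 0.16 in Cpeb4-/-. In WT P2rx7 was at 10.45, 10.64, 10.67 and 10.67 at 0 hr, at 9.51, 9.51, 9.53 and 9.62 at 3 hr and at 9.68, 9.83, 9.83 and 9.98 at 9 hr. The groups did not overlap. It fell by 0.37 (SE 0.07, limma adjusted p = 0.00044) in the first hour and by 0.70 (adjusted p = 5.53e-08) from 1 to 3 hr in WT. In Cpeb4-/- the falls were 0.22 (adjusted p = 0.017, lost without Cpeb4-/- mouse 2 or 3 at 0.110 and 0.070) and 0.92 (adjusted p = 5.01e-10).

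The recovery of P2rx7 from 6 to 9 hr was 0.23 in WT (limma adjusted p = 0.012, and 0.097 without WT mouse 25) and 0.66 in Cpeb4-/- (adjusted p = 1.79e-07), in 4 of 4 mice of each. At 9 hr the Cpeb4-/- libraries were at 10.01, 10.12, 10.23 and 10.25, above all WT libraries. P2rx7 was then higher in Cpeb4-/- by 0.32 (SE 0.08, adjusted p = 0.030), by 0.33 in batch 1 and 0.31 in batch 2, and was the only one of the 9 genes called higher in Cpeb4-/- at any time. The call was lost without any of 6 mice (Cpeb4-/- mouse 3, 55 or 62, WT mouse 25, 69 or 87; adjusted p = 0.066 to 0.090), without the filter (0.078) and without the trend (0.057). At 6 hr the difference was -0.11 (adjusted p = 0.350, and 0.049 without Cpeb4-/- mouse 55), and at 0 hr it was 0.0083 (95% interval -0.12 to 0.13).

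P2ry2, at chr7:100996568-101012866 on the minus strand (Entrez gene 18442), encodes a Gq-coupled receptor for ATP and UTP. P2ry6 lies 21919 bases from it. P2ry2 in WT was at 8.80, 8.88, 8.90 and 9.01 at 0 hr, at 10.06, 10.22, 10.27 and 10.31 at 1 hr and at 11.14, 11.15, 11.23 and 11.25 at 6 hr. Each group was clear of the one before. It rose by 1.32 in the first hour in both genotypes (limma adjusted p = 2.88e-11 in WT and 1.45e-14 in Cpeb4-/-), and by 0.83 and 0.71 from 1 to 3 hr. From 6 to 9 hr it fell by 0.45 in WT (SE 0.08, adjusted p = 9.18e-05) and by 0.63 in Cpeb4-/- (SE 0.05, adjusted p = 3.94e-09).

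At 9 hr P2ry2 was at 10.42, 10.51, 10.52 and 10.54 in Cpeb4-/- and at 10.63, 10.75, 10.77 and 10.85 in WT. The groups did not overlap, and Cpeb4-/- was lower by 0.25 (SE 0.06, limma adjusted p = 0.027; -0.23 in batch 1 and -0.27 in batch 2). This call was lost without any of 6 mice (Cpeb4-/- mouse 3, 55 or 62, WT mouse 25, 69 or 88; adjusted p = 0.058 to 0.084) and without the filter or the trend (0.054 each). At 0 hr the difference was 0.0086 (95% interval -0.13 to 0.14).

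P2ry6, at chr7:100937630-100974649 on the minus strand (Entrez gene 233571), encodes the UDP receptor and had the highest level per exon length. In WT it was at 12.62, 12.69, 12.76 and 12.80 at 0 hr, at 12.34, 12.37, 12.49 and 12.51 at 3 hr and at 12.72, 12.85, 12.85 and 12.92 at 6 hr. The 3 hr libraries were below those of both other times. It fell from 1 to 3 hr by 0.25 in WT (SE 0.05, limma adjusted p = 0.00037) and 0.37 in Cpeb4-/- (adjusted p = 4e-07), and rose from 3 to 6 hr by 0.41 (adjusted p = 9.58e-07) and 0.62 (adjusted p = 2.17e-10). These directions held under quantile normalization, unlike that of 9 hr against 0 hr.

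The Cpeb4-/- libraries were all below the WT libraries for P2ry6 at 0, 1 and 3 hr. At 3 hr they were at 11.99, 12.09, 12.15 and 12.15, and lower than WT by 0.33 (SE 0.06, limma adjusted p = 0.016; -0.35 in batch 1 and -0.32 in batch 2). That call was lost without Cpeb4-/- mouse 3 or WT mouse 25 (adjusted p = 0.058 and 0.055). At 0 hr they were at 12.54, 12.55, 12.60 and 12.61, with a difference of -0.14 (limma adjusted p = 0.176). The difference at 1 hr was -0.21 (adjusted p = 0.063). It passed with the replicate block (adjusted p = 0.0047), with all 40 libraries in one fit (0.0041), without Cpeb4-/- mouse 2 (0.045) and without WT mouse 69 (0.042). At 6 hr it was -0.13 (adjusted p = 0.105, and 0.042 without WT mouse 88). At 9 hr the genotypes overlapped, with a difference of -0.038 (95% interval -0.15 to 0.071).

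P2ry14, at chr3:59113855-59153618 on the minus strand (Entrez gene 140795), encodes the receptor for UDP-glucose and related UDP-sugars. It peaked at 6 hr and returned. In WT it was at 8.47, 8.60, 8.72 and 8.82 at 3 hr, at 9.45, 9.45, 9.60 and 9.80 at 6 hr and at 8.41, 8.58, 8.59 and 8.65 at 9 hr. The 6 hr libraries were above all others. It rose by 0.92 (SE 0.10, limma adjusted p = 8.91e-08) and fell by 1.02 (adjusted p = 4.35e-08), in 4 of 4 mice both times, and by 0.78 and 0.72 in Cpeb4-/- (adjusted p = 2.43e-07 and 1.35e-06). The difference of 9 hr against 0 hr was 0.11 in WT (adjusted p = 0.316) and 0.22 in Cpeb4-/- (adjusted p = 0.036, lost without Cpeb4-/- mouse 2, 3 or 55 at 0.056 to 0.198, and without the filter at 0.062). Under quantile normalization the difference in WT was 0.28 (adjusted p = 0.016). Between the genotypes P2ry14 was not called at any time, and its difference at 6 hr was -0.13 (95% interval -0.35 to 0.087, adjusted p = 0.418).

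Entpd1, at chr19:40612366-40741602 on the plus strand (Entrez gene 12495), encodes CD39, which degrades ATP and ADP. It had its highest mean at 1 hr, at 10.72 in WT and 10.90 in Cpeb4-/-, and fell after that. In WT it was at 10.53, 10.71, 10.75 and 10.80 at 0 hr, at 9.58, 9.64, 9.68 and 9.69 at 6 hr and at 8.80, 8.87, 8.98 and 9.02 at 9 hr. The groups did not overlap, and the mean at 9 hr was 28.3% of its highest group mean on the linear scale in WT and 26.1% in Cpeb4-/-. It fell by 0.76 (SE 0.12, limma adjusted p = 1.52e-05) from 3 to 6 hr and by 0.73 (adjusted p = 3.85e-05) from 6 to 9 hr in WT, and by 1.02 (adjusted p = 1.83e-12) and 0.40 (adjusted p = 3.92e-06) in Cpeb4-/-. The fall of 0.31 from 1 to 3 hr in WT (adjusted p = 0.033) was lost without WT mouse 25 or 69 (0.197 and 0.102), without the filter (0.067) and with only the libraries of those 2 times (0.133).

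At 6 hr Entpd1 was at 9.26, 9.35, 9.41 and 9.45 in Cpeb4-/-, below all WT libraries. The difference was -0.28 (SE 0.05, 95% interval -0.40 to -0.17, limma adjusted p = 0.0039; -0.31 in batch 1 and -0.26 in batch 2). By 9 hr the genotypes overlapped, with a difference of 0.049 (95% interval -0.087 to 0.185, adjusted p = 0.641).

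Nt5e, at chr9:88327197-88372092 on the plus strand (Entrez gene 23959), encodes CD73, the enzyme that makes adenosine from AMP. It was below the filter and was not tested. Its rlog ranged from 0.049 to 1.28 over the 40 libraries. At 9 hr Cpeb4-/- libraries were at 0.37, 0.94, 0.95 and 1.28 and WT libraries at 0.089, 0.097, 0.11 and 0.58. These values overlap and are too low for a comparison.

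**Figure D3:**
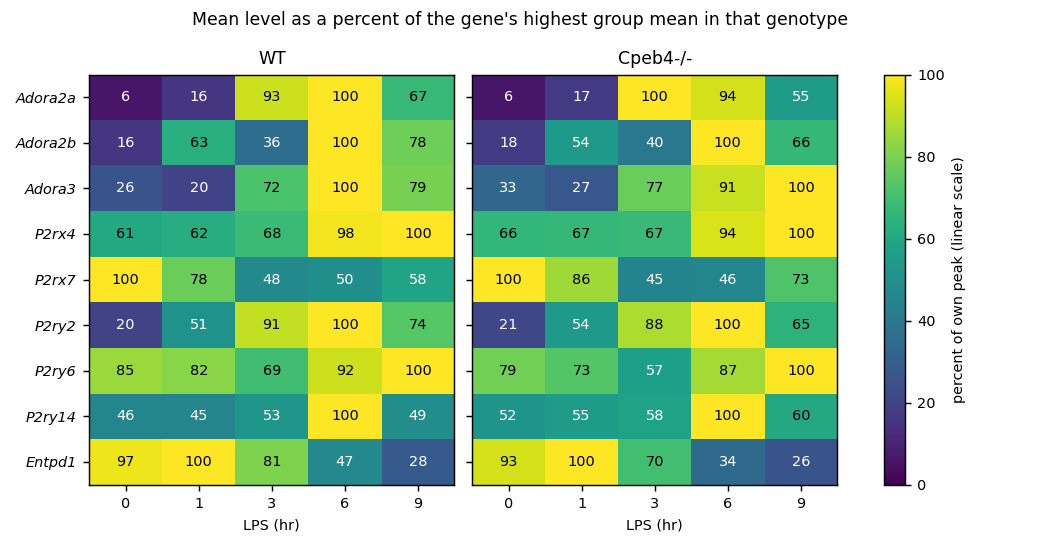
Mean of 4 mice for each of the 9 tested genes and each time (columns, hr of LPS) as a percent of the highest group mean of that gene in the same genotype, on the linear scale, for WT (left) and Cpeb4-/- (right). Adora2a starts at 5.91% in WT and 6.00% in Cpeb4-/-, whereas P2rx7 is at its highest at 0 hr in both.

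Between the genotypes, limma called 0, 0, 2, 3 and 3 of the 9 genes at the 5 times in order. Over all genes tested the shares called were 1.31%, 1.91%, 3.68%, 16.3% and 7.91%. At 3 hr both calls were lower in Cpeb4-/- (P2rx4 and P2ry6; 1.87% of all genes were called lower), and so were all 3 at 6 hr (Adora3, P2rx4 and Entpd1; 9.92% of all genes). At 9 hr P2rx4 and P2ry2 were lower (3.22% of all genes) and P2rx7 higher (4.69%). At an unadjusted p under 0.05, limma gave 2 of 9 at 0 hr (17.6% of all genes) and 3 of 9 at 1 hr (35.3%). The median difference of the 9 genes was 0.0086, 0.011, -0.070, -0.13 and -0.24 at the 5 times in order. Over all genes it was 0.0060, 0.016, 0.0077, -0.015 and 0.0044.

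Up to 3 hr, more of these genes had groups that did not overlap than were called. The highest Cpeb4-/- library was under the lowest WT library for 1 of the 9 genes at 0 hr (P2ry6; 5.04% of all genes) and for 2 at 1 hr (Adora2b and P2ry6; 8.11%), when the groups of Adora2a were apart in the other direction (7.55%). The same held, with Cpeb4-/- below WT, for 3 genes at 3 hr (Adora3, P2rx4 and P2ry6; 6.58%), and for the 3 called genes at 6 hr (12%). At 9 hr Cpeb4-/- was below WT for P2rx4 and P2ry2 (8.51%) and above it for P2rx7 (8.35%). These shares count all genes tested in the same comparison and direction.

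The calls at 6 hr for Adora3, P2rx4 and Entpd1 held in all 16 alternatives tried. Over these, the adjusted p of limma ran from 4.07e-05 to 0.016 for Adora3, from 6.47e-05 to 0.019 for P2rx4 and from 0.0028 to 0.043 for Entpd1. The differences ran from -0.77 to -0.64, from -0.34 to -0.21 and from -0.31 to -0.25 in the same order. The P2rx4 value of -0.21 was that under quantile normalization. The count at 9 hr ran from 0 to 5 of 9 over the alternatives, and the share of all genes called also moved, from 2.80% without the filter (0 of 9) to 35.2% without Cpeb4-/- mouse 2 (5 of 9). With the replicate block 3 genes were called at 1 hr (Adora2b, P2rx4 and P2ry6, all lower in Cpeb4-/-; 33% of all genes) and 5 at 9 hr (18.1% of all genes).

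Markers moved with the genotype beside these genes. Of the 7 macrophage markers, 4 were called lower in Cpeb4-/- at 6 hr (Csf1r by 0.25, Cd68 by 0.26, Fcgr1 by 0.28 and Lyz2 by 0.38), 1 at 3 hr (Lyz2 by 0.55), 2 at 9 hr (Cd68 by 0.25 and Fcgr1 by 0.31) and 0 at 0 and 1 hr, and none was called higher. Of all genes tested 1.87%, 9.92% and 3.22% were called lower at 3, 6 and 9 hr. Itgam, Adgre1 and Mertk were not called at any time. They differed by 0.11, -0.02 and -0.28 at 6 hr and by 0.22, 0.10 and 0.38 at 9 hr. The summed level of the 7 on the linear scale at 6 hr was 530341 to 582624 normalised reads in WT and 428429 to 504029 in Cpeb4-/-. These sums did not overlap between the genotypes at any of the 5 times. Lyz2 weighs most in them, with a WT mean of 18.33 at 6 hr, and Adgre1 is next at 16.26. Of 4 dendritic cell markers, Xcr1 was lower at 6 hr by 0.49, with sums of 107 to 137 in WT and 80.2 to 100 in Cpeb4-/-, and Zbtb46 was higher at 3 hr, with means of 3.47 in WT and 4.56 in Cpeb4-/-. In bulk libraries fewer cells of a type and less RNA per cell cannot be told apart, and the part of these markers in the differences above was not tested.

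Sums of markers of other cells were low but moved with time. The 4 stromal markers summed to 7.02 to 8.10 normalised reads in WT at 0 hr and 19.6 to 24.4 at 9 hr, and to 23.4 to 65.7 in Cpeb4-/- at 9 hr. The 5 neutrophil markers summed to 9.71 to 12.7 in WT at 0 hr and 24.8 to 34.6 at 9 hr, and the 4 dendritic cell markers to 39.7 to 67.4 at 0 hr and 133 to 153 at 3 hr. The 3 endothelial markers summed to 4.97 to 7.19 in WT at 0 hr and 13.1 to 22.6 at 6 hr. By group means in WT, the neutrophil rise was that of Camp, whereas Ltf and Mpo were lower at 9 hr than at 0 hr. The dendritic cell rise was mostly that of Xcr1, with a smaller one of Zbtb46, whereas Flt3 and Siglech were lower at 3 hr than at 0 hr. Cdh5 made up most of the endothelial rise, and Dcn most of the stromal rise in WT. At 9 hr Col1a1 was higher in Cpeb4-/-, with means of 2.91 in Cpeb4-/- and 1.49 in WT and no overlap. In the same order Col1a2 was at 2.56 and 1.34, with overlap, Col3a1 at 0.79 and 0.77, and Dcn at 3.92 and 3.83. Col1a1, Col1a2 and Col3a1 were below the filter at that time and were not tested. For neutrophils and dendritic cells the sums thus do not show that whole marker lists rose. All 4 stromal markers had higher WT means at 9 hr than at 0 hr. Col1a1 went from 1.04 to 1.49, Col1a2 from 0.72 to 1.34, Col3a1 from 0.16 to 0.77 and Dcn from 1.33 to 3.83. The part of such cells in the changes after LPS was not tested.

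**Figure D4:**
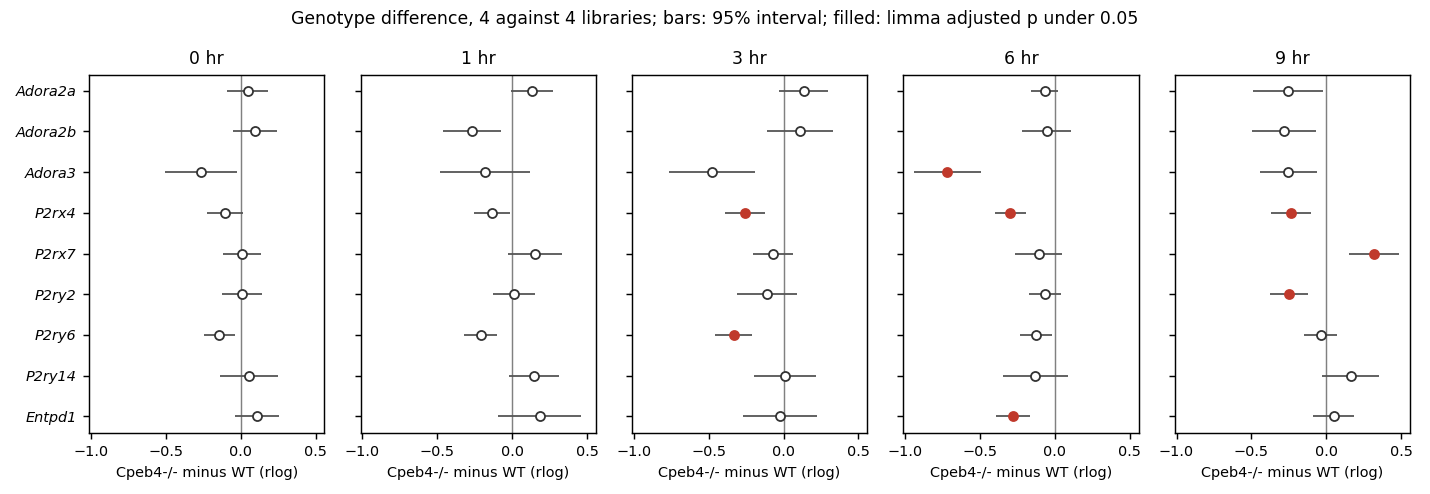
Difference between Cpeb4-/- and WT in rlog (horizontal axis) for the 9 tested genes at each time, with 4 libraries against 4; bars are 95% intervals and filled red points have a limma adjusted p under 0.05. There are 2 filled points at 3 hr and 3 at each of the later times, and P2rx7 at 9 hr is the filled point to the right of 0.

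Whether the change over the hours of LPS differed between the genotypes was tested with the genotype by time term, the change from 0 hr in Cpeb4-/- minus that in WT. None of the 9 genes was called at 1, 3, 6 or 9 hr, against 0.00763%, 0.206%, 2.94% and 1.76% of all genes. At an unadjusted p under 0.05 limma gave 1, 1, 3 and 4 of 9 (1.57%, 5.03%, 15.1% and 12% of all genes). With the mouse as a replicate block, which the design allows because each mouse gave all 5 times, 3 of 9 were called at 6 hr (7.88% of all genes) and 0 at the other times. These were Adora3 at -0.45 (adjusted p = 0.049, against 0.158 without the block), P2rx4 at -0.19 (adjusted p = 0.031, against 0.204) and Entpd1 at -0.39 (adjusted p = 0.024, against 0.124). P2rx4 was also called without Cpeb4-/- mouse 55 (adjusted p = 0.04999). The comparisons share their 0 hr libraries.

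Over the 40 libraries, the genes whose profile was most like that of Adora2a were Gbp5 (Pearson r = 0.99), Pgs1 and Nectin2 (both 0.99). For Adora2b they were Cebpb (0.97), Atf4 (0.96) and Ndel1 (0.95), for Adora3 Gm4951 (0.97), C1ra (0.96) and Cog4 (0.96), and for P2ry2 Tnip1, Stk40 and Nfkb2 (all 0.99). Among the 10 genes themselves Adora2a and P2ry2 had an r of 0.96, and Adora2a and P2rx7 one of -0.93. These correlations are descriptions. The 40 libraries share 8 mice and 5 times, and the groups differ mainly by time.

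Of 48 other genes of purine signalling in 6 lists, 34 were tested at 0 and 1 hr and 33 at 3, 6 and 9 hr. The gene with the largest rise after LPS was Cd38, which encodes a surface enzyme that consumes NAD, by 5.13 in WT and 5.25 in Cpeb4-/- at 9 hr. Slc28a2, a concentrative nucleoside transporter, rose by 3.37 and 3.22, and Bst1, a relative of Cd38, by 2.81 and 3.04. P2ry1, an ADP receptor, fell by 2.42 and 2.44, and Adcy3, an adenylyl cyclase, by 1.68 and 1.58 (limma adjusted p under 0.05 for all). The next largest fall was that of Pde4d, a phosphodiesterase that degrades cyclic AMP, by 1.33 in WT, and that of Ada, adenosine deaminase, by 1.05 in Cpeb4-/-. In all, of 34 tested, 10 rose and 18 fell in WT (35.9% and 35.6% of all genes). In Cpeb4-/- 10 rose and 15 fell (36.4% of all genes each).

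By list, at 9 hr in WT 0 of 5 tested other receptors rose and 4 fell, 3 of 4 other ectoenzymes rose and 1 fell, and 1 of 3 intracellular NTPDases rose and 2 fell. Of the genes of adenosine handling 3 of 7 rose and 3 fell, of nucleotide release 1 of 3 rose and 2 fell, and of cyclic AMP signalling 2 of 12 rose and 6 fell. In Cpeb4-/- the counts were 0 and 3, 3 and 1, 1 and 2, 3 and 3, 1 and 1, and 2 and 5 in the same order. Over all genes tested 35.9% rose and 35.6% fell in WT, and 36.4% each in Cpeb4-/-.

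Between the genotypes, limma called 0 of the 34 tested genes at 0 hr, and 2 each at 1 and 3 hr, all lower in Cpeb4-/-. At 6 hr it called 9 of 33, of which 4 were higher and 5 lower in Cpeb4-/-, and at 9 hr 4 of 33, of which 3 were higher. The shares of all genes called, in either direction, were 1.31%, 1.91%, 3.68%, 16.3% and 7.91% at the 5 times in order. Pnp, purine nucleoside phosphorylase, was lower at 1, 3, 6 and 9 hr, by 0.36, 0.54, 0.47 and 0.43 (limma adjusted p = 0.047, 0.019, 0.0037 and 0.025). It has a near-identical neighbour, Pnp2, with which counting could split reads. Crem, a transcriptional regulator that responds to cyclic AMP, was lower at 1 hr by 0.36 and at 3 hr by 0.33 (adjusted p = 0.035 and 0.027).

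Acpp, the transmembrane acid phosphatase that can also convert AMP to adenosine, had the largest genotype difference of these lists. At 9 hr it was at 7.23, 7.28, 7.31 and 7.87 in Cpeb4-/- and at 5.46, 5.76, 5.94 and 6.35 in WT. The groups were well apart, with Cpeb4-/- higher by 1.55 (SE 0.19, limma adjusted p = 0.0021; 1.97 in batch 1 and 1.13 in batch 2), and by 0.95 at 6 hr (adjusted p = 0.0035). Its rise after 9 hr of LPS was larger in Cpeb4-/- by 1.27 (genotype by time adjusted p = 0.0058).

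Bst1 was higher in Cpeb4-/- at 6 hr by 0.48 and at 9 hr by 0.44 (limma adjusted p = 0.0012 and 0.0086), Panx1, a channel that releases ATP, at 6 hr by 0.28 (adjusted p = 0.027), and Pde4d at 9 hr by 0.76 (adjusted p = 0.027). The ADP receptor genes P2ry1 and P2ry13 were lower in Cpeb4-/- at 6 hr, by 0.39 and 0.38 (adjusted p = 0.042 and 0.023). For P2ry1 the genotype by time term at 6 hr was -0.71 (SE 0.17, adjusted p = 0.016). Its WT libraries were at 7.71 to 8.04 at 0 hr and 5.56 to 6.09 at 6 hr, and its Cpeb4-/- libraries at 8.03 to 8.37 and 5.32 to 5.53.

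**Figure D5:**
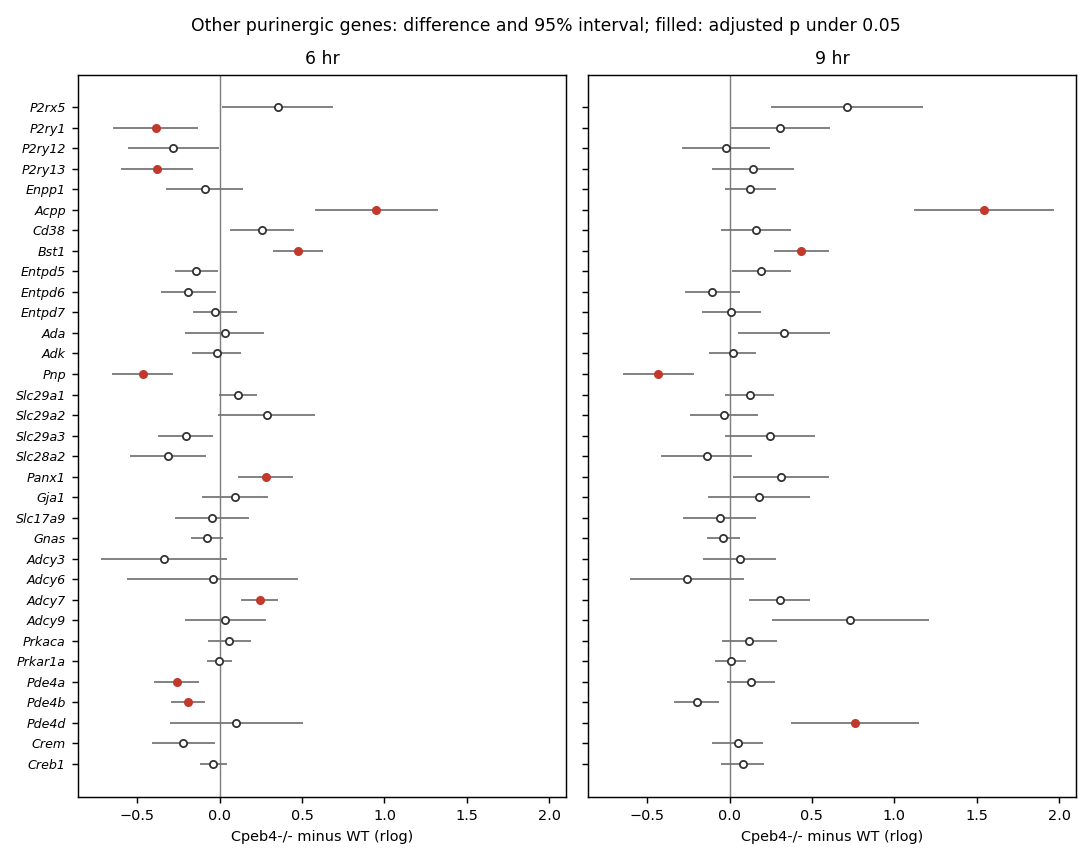
Difference between Cpeb4-/- and WT in rlog (horizontal axis) for the other genes of purine signalling that were tested at 6 hr (left) and 9 hr (right), with 95% intervals; filled red points have a limma adjusted p under 0.05. Acpp is the point farthest to the right at both times, at 0.95 and 1.55, and Pnp is filled to the left of 0 at both.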

How the data were processed

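RNA was sequenced from BMDMs of 4 WT and 4 Cpeb4-/- mice at 0, 1, 3, 6 and 9 hr of LPS. The authors deposited 1 table of log2 values, the regularized log of gene counts made with DESeq2; the submitters' processing notes also name STAR 2.3.0e, featureCounts and mm10. The libraries were not stranded, so antisense reads cannot be told apart. The table gives no counts, so the precision set by depth is unknown; 6395 of 27179 genes were 0 in every library and 958 had no symbol. Replicates of a group had an r of 0.998 to 0.999 and no 2 libraries were identical. No columns of values were left unused.

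From these values, 19 comparisons were fitted across all genes with limma 3.58.1 in R 4.3.3 (lmFit and eBayes with trend), on genes whose rlog averaged log2 of 5 or more, with Benjamini-Hochberg adjustment over the 13008 to 13118 genes tested. Genotypes were compared within each time (8 libraries), steps of time within each genotype (20 libraries), and genotype by time over all 40. Tests are two-sided. A gene was called at an adjusted p under 0.05. Mice are separate animals, and the spread between them includes that of cultures and library preparation. By the labels some mice of the same genotype shared a cage, and no fit took cage into account. Linear levels were 2 to the power of the rlog. The scripts were tested on simulated data.

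All 10 genes were named, and of the other lists at most the 3 largest rises and falls per comparison between the genotypes and of 9 hr against 0 hr. For a gene whose group means spanned at least 2 rlog units, the 3 genes with the highest r were given. The members, lists and motifs were chosen with earlier results of these data known. Macrophage, dendritic cell, neutrophil, mast cell, T cell, B cell, stromal and endothelial markers were checked.

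Mouse numbers in the labels tie the times together. After removal of group means, 2 libraries of 1 mouse correlated at a median r of 0.29 (lowest -0.19; over 0.1 for 68 of 80 pairs), against -0.091 for 240 pairs from different mice of a genotype. The replicate block was a random effect for genotype, in a fit of all 40 libraries (statmod 1.5.0), and a fixed effect otherwise. Other alternatives were no filter, a mean rlog of at least 5, no trend, robust eBayes, quantile normalization, a batch covariate, a single fit of all 40 libraries, only the libraries of the 2 times, and each mouse left out. Locations and exons came from GENCODE vM21 and promoter windows from RefSeq. Python 3.11.15, pandas 2.3.3 and matplotlib 3.10.9 were used.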

Additional observations from a re-analysis of the deposited data

Results flagged for a closer look

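Single libraries stood apart from the other 3 of their group, by Dixon's test at 95%, in 8 of the 100 groups tested (10 genes, 2 genotypes and 5 times), where chance gives about 1 in 20 groups. In WT, mouse 87 was high for Adora2a at 0 hr (7.40, nearest 7.30) and low for P2rx7 at 0 hr (10.45, nearest 10.64). It was also low for Nt5e at 6 hr (0.117, nearest 0.133) and high for Nt5e at 9 hr (0.578, nearest 0.110). The count includes these groups of Nt5e, a gene below the filter with values too low for a comparison. WT mouse 69 was high for Adora2b at 1 hr (9.80, nearest 9.45), the time at which Adora2b did not overlap between the genotypes. In Cpeb4-/-, mouse 3 was low for P2rx4 at 0 hr (12.60, nearest 12.72) and for P2ry14 at 1 hr (8.47, nearest 8.62), and mouse 55 was high for P2rx4 at 3 hr (12.88, nearest 12.68). The P2rx4 call at 3 hr held without mouse 55 and was lost without any of 6 other mice.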

How the results depend on the processing

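Of 2430 values of single genes recomputed, 2271 kept their direction and their side of the threshold. For the genotype at 3 hr, limma called 1 gene in place of 2 without a filter, without a trend, under quantile normalization and with batch as a covariate, and 0 to 3 when a mouse was left out. The shares of all genes called in the first 4 of these fits were 0.804%, 1.76%, 3.27% and 1.48%, in place of 3.68%. At 9 hr it called 0 in place of 3 without a filter and without a trend, 5 with all 40 libraries in one fit and with the replicate block, and 0 to 5 when a mouse was left out, while 2.80%, 5.38%, 17.4%, 18.1% and 2.98% to 35.2% of all genes were called, in place of 7.91%. At 1 hr it called 2 in place of 0 with all 40 libraries and 3 with the block (31.9% and 33% of all genes, in place of 1.91%), and 0 to 1 when a mouse was left out. For genotype by time at 6 hr the block gave 3 in place of 0 (7.88% of all genes, in place of 2.94%), and leaving out a mouse 0 to 1. For 9 hr against 6 hr in WT, leaving out a mouse gave 4 to 6. The causes were not tested, except that fewer samples enter the last kind of fit.

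Under quantile normalization P2rx4 turned to -0.25 and -0.17 in WT and -0.28 and -0.24 in Cpeb4-/- for the first 2 steps, and P2ry6 to -0.29 and -0.16 for 9 hr against 0 hr. In the first hour P2ry6 fell by 0.33 in WT and by 0.40 in Cpeb4-/-, and from 6 to 9 hr P2rx4 rose by 0.29 and 0.28, with calls that the deposited scaling did not give, as for P2ry6 from 6 to 9 hr (0.35) and P2ry14 from 1 to 3 hr (0.30) in WT and Adora2a (-0.18) and Adora3 (0.43) from 3 to 6 hr in Cpeb4-/-. Values near 0 that also turned were the genotype differences of P2rx7 (-0.0028) and P2ry2 (-0.00048) at 0 hr, P2ry2 at 1 hr (-0.012) and P2ry14 at 3 hr (-0.0065), the first step of P2ry14 in WT (0.028) and of Entpd1 (-0.086 in WT, -0.023 in Cpeb4-/-), 9 hr against 6 hr of Adora3 in Cpeb4-/- (-0.013), and genotype by time of P2ry2 at 1 hr (-0.013) and Adora3 at 9 hr (-0.054).

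Leaving out a mouse turned the sign of values that were not called. For the genotype these were P2rx7 (-0.044 to 0.029) and P2ry2 (-0.025 to 0.045) at 0 hr, P2ry2 at 1 hr (-0.040 to 0.043), and P2ry14 (-0.061 to 0.068) and Entpd1 (-0.12 to 0.061) at 3 hr. For steps in WT they were P2ry14 (-0.039 to 0.027) and Entpd1 (-0.069 to 0.084) in the first hour, and in Cpeb4-/- P2rx4 in the first hour (-0.0061 to 0.034) and from 1 to 3 hr (-0.020 to 0.025) and P2rx7 from 3 to 6 hr (-0.014 to 0.046). For genotype by time they were Adora3 (-0.040 to 0.22) and P2ry2 (-0.017 to 0.039) at 1 hr, Adora2b (-0.080 to 0.11) and P2ry14 (-0.12 to 0.031) at 3 hr, P2ry6 at 6 hr (-0.036 to 0.053) and Adora3 at 9 hr (-0.045 to 0.077).

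In single steps, leaving out 1 mouse also gave calls for Adora3 (mouse 3 or 55, adjusted p = 0.033 to 0.037), P2ry6 (mouse 2, 0.038) and Entpd1 (mouse 2, 0.048) in the first hour in Cpeb4-/- and for P2ry14 from 1 to 3 hr in WT (mouse 88, 0.040), and lost that of P2ry2 from 3 to 6 hr in Cpeb4-/- (mouse 55, 0.079). Beside the genotype results given above, the block moved P2ry14 from 1 to 3 hr in WT (adjusted p = 0.0070), Adora3 and P2ry6 in the first hour in Cpeb4-/- (0.028 and 0.030) and Adora3 from 3 to 6 hr in Cpeb4-/- (0.041) past the threshold, and changed no other call of these genes. Without counts, limits from depth cannot be given, and rlog shrinks the differences of low genes such as Nt5e.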
